A study of Arabidopsis thaliana with 18 samples.

Results

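The genes described are 45 nuclear genes of photosynthesis in Arabidopsis thaliana seedlings, out of 32547 nuclear loci counted in the deposited files. They were chosen as a list of gene identifiers by what their proteins do, without use of measured values, and fall into 7 sub-groups. Photosystem I subunits gave 12 genes, photosystem II subunits 9 and antenna proteins 9. Electron transport gave 5 genes, the chloroplast ATP synthase 2, the Rubisco small subunit 4, and the Calvin cycle 4. Of the 45 genes, 44 passed the filter on low counts and were tested. PSAH2 (AT1G52230), a photosystem I subunit gene, did not pass, with at most 6 counts in a library.

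In the chloroplast, antenna proteins pass light energy to the photosystems, which drive electrons from water through cytochrome b6f and plastocyanin to ferredoxin and NADPH, while the ATP synthase uses the proton gradient that builds up. Rubisco and the other Calvin cycle enzymes spend the ATP and NADPH on fixing carbon dioxide. The complexes are mixed in origin: some subunits are encoded in the chloroplast, and those described here are encoded in the nucleus and imported. In leaves of light-grown plants these nuclear genes are among the most highly expressed.

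The study sequenced stranded mRNA libraries, made from 1 µg of total RNA with single 50-base reads, to ask how expression differed between putative transparent testa mutants and the wild type. All seedlings, controls included, were grown for 4 days in the condition labelled AIC, which means shaking in 3% sucrose under 24 h of light. The mutant groups were ban (alleles ban-6 and ban-7), tt1 (tt1-4, tt1-5), tt3 (tt3-3, tt3-4), tt5 (tt5-3, tt5-4), tt8 (tt8-7 to tt8-12) and ttg1 (ttg1-23, ttg1-24), with Col-0 as the wild type. These loci act in or regulate flavonoid synthesis, and each allele is a line of the SALK, SAIL or GK collection with 1 library. The design text says that the mutants have no replicates, so alleles of a locus served as its samples. No source states whether the libraries stem from separate cultures, so the p-values gauge the spread among these samples and nothing more.

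Total counts per library ran from 8057534 to 27145377. Between the 2 Col-0 files the differences were smaller than counting noise (chi-square over degrees of freedom 0.222, as against 9.54 to 143 in 20 pairs of mutant libraries of a locus). They were counted as 1 sample, which gave 17 samples. The targeted transcripts did not follow every label. TTG1 had 0 counts in ttg1-24 and 15.9 CPM in ttg1-23, where CPM are counts scaled to a total of 1000000 per library, and 30.4 CPM in Col-0. TT5 was at 4.23 CPM in tt5-3, 4.50 CPM in tt5-4 and 43.4 CPM in Col-0. TT3, by contrast, was higher in the libraries labelled tt3 (211 and 274 CPM) than in Col-0 (63.2 CPM). TT8 ran from 6.97 to 102 CPM in the libraries labelled tt8, with 11.5 CPM in Col-0, and BAN and TT1 were at or near 0 in all 17 samples, so neither transcript checks its label. Of the markers of other tissues, 14 root markers summed to 1270 to 2772 CPM, 9 leaf and stomatal markers to 57.7 to 113 CPM, and 15 seed markers to 903 to 27322 CPM. No gene of these 3 lists was at 0 in every sample, although MUTE, a stomatal regulator, did not pass the filter. The seedlings were sampled whole, so fewer green cells and less RNA per green cell cannot be told apart.

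The 45 photosynthesis genes together took between 0.0203% of the counts, in ban-7, and 0.0710%, in tt8-7. Their summed level was 526 CPM in Col-0, with an exact 95% Poisson interval of 515 to 538 CPM that, like every such interval here, covers counting error only. It was 613 and 203 CPM in ban-6 and ban-7, 323 and 377 CPM in tt1-4 and tt1-5, and 471 and 303 CPM in tt3-3 and tt3-4. It was 308 CPM in tt5-3 and 653 CPM in tt5-4, and 659 and 522 CPM in ttg1-23 and ttg1-24. Alleles of ban, tt3 and tt5 thus stood far apart, one close to Col-0 or above it and the other well below. The 6 libraries labelled tt8 had 315 CPM at the lowest, 429.6 ± 143 (mean ± SD, n = 6) on average, and 710 CPM at the highest. In 12 of 16 mutant libraries the sum lay below Col-0. The exceptions were tt8-7, ttg1-23, tt5-4 and ban-6, while Col-0 lay within the counting interval of ttg1-24 (506 to 538 CPM). When library sizes were scaled by TMM, ttg1-24 passed Col-0, at 573 against 556 CPM.

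**Figure D1:**
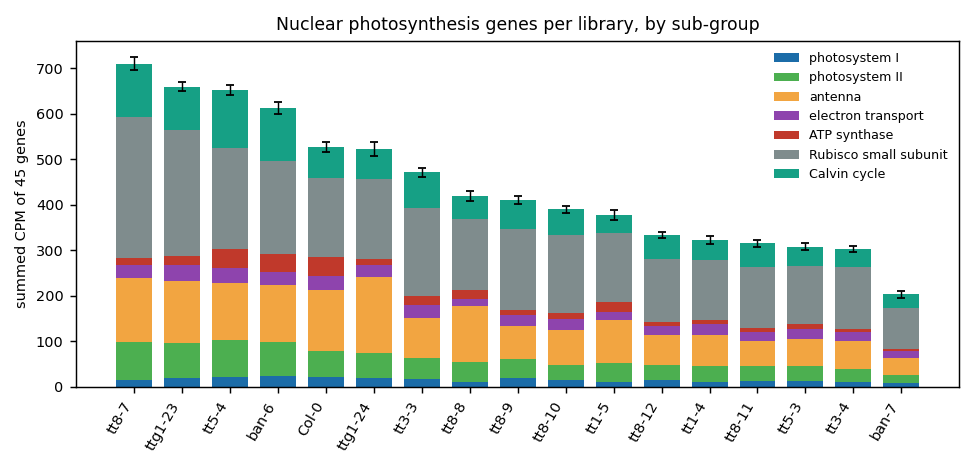
Bars show the summed CPM (y axis) of the 45 genes in each of the 17 samples (x axis, from highest to lowest), stacked by sub-group, and the error bars on the totals are exact 95% Poisson intervals. The total ran from 203 CPM in ban-7 to 710 CPM in tt8-7. The alleles of ban and of tt5 lie near opposite ends, and those of tt1 and of ttg1 do not.

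For most of these genes the levels were low. Per kb of transcript, the median over the 44 tested genes was 2.76 CPM per kb, against 9.57 CPM per kb over all 20747 tested genes, and 37 of the 44 lay below that general median. Only RBCS1A, at 130 CPM per kb, and LHCB4.1, at 44.4 CPM per kb, lay above the upper quartile of all genes, 24.5 CPM per kb. For scale, the most abundant transcript in these seedlings was ICL, which encodes isocitrate lyase of the glyoxylate cycle and averaged 14046 CPM, many times the whole photosynthesis group. Of the 45 genes, 11 had 3 counts or fewer in some library and 14 stayed under 50 counts in every library, so their single values carry a wide counting error. The typical standard error of a log2 fold change was also larger here than elsewhere: in tt8 against Col-0 its median was 0.69 over the 44 genes and 0.34 over all tested genes.

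Photosystem I receives electrons from plastocyanin and passes them to ferredoxin. Its 12 subunit genes together reached 8.64 CPM in ban-7, 15.3 CPM in the median library and 24.99 CPM in ban-6, against 20.9 CPM in Col-0. PSAF (AT1G31330), which encodes the plastocyanin-docking subunit, had the highest mean of them. It stood at 8.10 CPM in Col-0, 7.11 and 1.63 CPM in ban-6 and ban-7, 3.35 and 2.22 CPM in tt1-4 and tt1-5, and 3.79 and 3.02 CPM in tt3-3 and tt3-4. In tt5-3 and tt5-4 it was at 3.44 and 8.57 CPM, in ttg1-23 and ttg1-24 at 5.90 and 4.22 CPM, and in tt8 at 3.18 CPM (lowest), 3.90 CPM (median) and 4.90 CPM (highest). PSAF lay below Col-0 in every mutant library but tt5-4, yet its log2 fold change did not pass the test in any locus (tt1 against Col-0 −1.67 ± 0.66 (SE), adjusted p = 0.228 by edgeR's quasi-likelihood test).

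The D and E subunits on the ferredoxin side of photosystem I are each encoded by a gene pair, and in both pairs the second gene gave more counts in most samples. PSAD2 (AT1G03130) exceeded PSAD1 (AT4G02770) in 16 of 17 samples, and PSAD1 held from 2.90% of the pair's counts in ban-7 to 55.2% in ttg1-24. Ranges are compared here and below as the highest over the lowest CPM, among genes above 0 in every library. PSAD2 had the narrowest range of the photosystem I genes, 1.61 to 4.41 CPM, whereas PSAD1 ran from 0.125 CPM in ban-7 to 1.99 CPM in ttg1-24. PSAD2 also ran against the rest of the group: it was the only gene lower in tt5-4 than in tt5-3, and it was among the 2 genes lower in ban-6 than in ban-7 and the 2 lower in tt3-3 than in tt3-4. The 250 bases before the annotated starts of this pair are shown because its members moved in opposite directions between alleles. They come from RefSeq's TAIR10.1 sequence (PSAD1 chr4:1230165-1230414, minus strand, PSAD2 chr1:754263-754512, minus strand), are printed 5′ to 3′ on the gene's strand, and carry in capitals the I-box (GATAAG), a light-promoter motif.
PSAD1: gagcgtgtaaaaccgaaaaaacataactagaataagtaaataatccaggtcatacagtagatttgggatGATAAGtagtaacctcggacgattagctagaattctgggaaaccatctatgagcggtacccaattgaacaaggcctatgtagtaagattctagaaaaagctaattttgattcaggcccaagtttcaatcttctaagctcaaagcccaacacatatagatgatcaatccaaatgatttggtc
PSAD2: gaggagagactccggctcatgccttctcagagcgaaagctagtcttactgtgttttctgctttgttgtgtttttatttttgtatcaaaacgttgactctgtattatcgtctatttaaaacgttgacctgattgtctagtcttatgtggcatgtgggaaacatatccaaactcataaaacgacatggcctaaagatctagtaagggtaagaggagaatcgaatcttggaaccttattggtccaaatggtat
PSAD1 has 1 I-box, 181 bases before its start, and PSAD2 has none in this window.

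In counts, PSAE1 (AT4G28750) exceeded PSAE2 (AT2G20260) only in Col-0, at 22 against 18. It made up 55.0% of the pair there, against 5.56% in tt1-4. Per kb of transcript, PSAE1 exceeded PSAE2 in 0 of 17 samples. By the ratio of highest to lowest, PSAE1 had the widest range of the tested photosystem I genes, from 1 count (0.0540 CPM) in tt1-4 to 1.37 CPM in Col-0, so the ratio rests on that single count. PSAE2 ran from 0.250 CPM in ban-7 to 3.75 CPM in ban-6 and was at 3.00 CPM in ttg1-23, 2.11 CPM in ttg1-24 and 1.12 CPM in Col-0 (log2 fold change in ttg1 1.15 ± 1.13, adjusted p = 0.635). PSAG (AT1G55670), the peripheral subunit next to the LHCI antenna, had 1 count in Col-0 and 126 counts over the 16 mutant libraries. That is a ratio of 6.76 with an exact 95% counting interval of 1.19 to 269, and in each mutant locus the difference did not pass the test. It was the only one of the 44 genes lowest in Col-0 (19.4% of all tested genes were). The reading of PSAG is further limited by AT1G55673, an annotated gene on the opposite strand that overlaps 479 of its bases, since the strand setting of the counting is not given. PSAH1 (AT3G16140) held 62.5% to 100% of the counts of its pair with PSAH2. Genes on the opposite strand also overlap 445 bases of PSAE1, 788 bases of PSAH1 and 174 bases of PSAH2, which limits the shares of both pairs in the same way. PSAK (AT1G30380), PSAL (AT4G12800), PSAN (AT5G64040) and PSAO (AT1G08380), encoding small subunits, had library values between 0.153 and 2.98 CPM.

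Photosystem II splits water and passes the electrons to plastoquinone. The extrinsic PSBO protein, which stabilises the manganese cluster, is encoded by 2 genes, of which PSBO2 (AT3G50820) gave more counts than PSBO1 (AT5G66570) in 16 of 17 samples, tt8-12 being the exception. PSBO2 had the highest mean of the photosystem II genes and the widest range, as highest over lowest, of those above 0 in every library. It stood at 12.6 CPM in Col-0, 26.0 and 2.82 CPM in ban-6 and ban-7, 4.37 and 13.2 CPM in tt1-4 and tt1-5, and 11.2 and 6.59 CPM in tt3-3 and tt3-4. It stood at 8.91 and 33.7 CPM in tt5-3 and tt5-4, at 26.0 and 19.5 CPM in ttg1-23 and ttg1-24, and at 4.72 CPM (lowest), 6.51 CPM (median) and 41.7 CPM (highest) in tt8. The alleles of ban, tt1, tt5 and tt8 fell on both sides of Col-0, and its log2 fold change in tt8 was 0.18 ± 1.31 (adjusted p = 0.947). PSBO1 ran more narrowly, from 2.57 CPM in ban-7 to 16.4 CPM in ttg1-23. PSBP1 (AT1G06680), encoding another extrinsic subunit of the water-splitting side, had the narrowest range of the sub-group, 2.69 to 9.43 CPM. PSBQ1 (AT4G21280) and PSBQ2 (AT4G05180), for the third extrinsic subunit, were low (at most 2.18 and 1.61 CPM). PSBQ2 had 0 counts in ban-7, so its ratio of highest to lowest has no upper bound, and it had 5 counts in the tt1 libraries together against 19 in Col-0, a ratio of 0.134 with a counting interval of 0.0390 to 0.370. PSBR (AT1G79040), PSBW (AT2G30570) and PSBX (AT2G06520) ran from 0.751 to 5.19 CPM, 0.811 to 3.30 CPM and 4.13 to 15.3 CPM.

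PSBY (AT1G67740), which encodes small membrane-spanning subunits of photosystem II, was the only one of the 44 genes that passed the test in any comparison. It was at 8.35 CPM in Col-0, the highest of all samples, and at 2.67 and 1.86 CPM in ttg1-23 and ttg1-24. In the other mutants it was at 4.05 and 2.19 CPM (ban-6, ban-7), 4.26 and 6.35 CPM (tt1-4, tt1-5), 6.52 and 4.57 CPM (tt3-3, tt3-4), and 2.47 and 3.92 CPM (tt5-3, tt5-4). In tt8 it had 2.79 CPM at the lowest, 3.91 CPM in the median and 4.46 CPM at the highest. Both ttg1 libraries thus lay below every tt8 library, which 7.43% of all tested genes showed, and below Col-0, and no mutant library reached Col-0. In ttg1 against Col-0 PSBY fell by 1.91 on the log2 scale (SE 0.43, adjusted p = 0.0479 by edgeR), in a comparison in which 0.612% of all tested genes were called lower. The call was close to the threshold and was lost when either ttg1 library was left out, at an adjusted p of 0.0828 without ttg1-23 and of 0.218 without ttg1-24. It was also lost without any one of the tt1, tt3 and tt5 libraries or of 5 of the tt8 libraries, at 0.0537 to 0.0786. PSBY was below Col-0 by similar or smaller amounts in the other loci without passing the test, for example −1.49 ± 0.42 in ban (adjusted p = 0.123) and −1.23 ± 0.35 in tt8 (adjusted p = 0.0826), and the difference between tt8 and ttg1 did not pass either (0.67 ± 0.31, adjusted p = 0.357). Its promoter is shown as that of the one called gene (TAIR10.1, chr1:25395250-25395499, minus strand), and it holds none of the 3 motifs searched.
PSBY: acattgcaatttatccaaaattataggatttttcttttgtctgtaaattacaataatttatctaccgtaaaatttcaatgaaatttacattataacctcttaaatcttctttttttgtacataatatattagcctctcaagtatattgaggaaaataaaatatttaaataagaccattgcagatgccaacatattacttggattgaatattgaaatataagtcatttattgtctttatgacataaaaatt

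One gene, LHCB4.1, gave a large part of the antenna counts. LHCB4.1 (AT5G01530) and LHCB4.2 (AT3G08940) both encode CP29, a minor antenna protein that links the photosystem II core with the main light-harvesting trimers, and LHCB4.1 held 93.8% to 97.8% of the pair's counts in every sample. Per kb, LHCB4.1 averaged 44.4 CPM and LHCB4.2 averaged 1.87 CPM. LHCB4.1 stood at 85.1 CPM in Col-0, 72.5 and 25.9 CPM in ban-6 and ban-7, 48.9 and 62.3 CPM in tt1-4 and tt1-5, and 48.4 and 39.5 CPM in tt3-3 and tt3-4. It stood at 36.2 and 78.2 CPM in tt5-3 and tt5-4, at 94.0 and 110 CPM in ttg1-23 and ttg1-24, and at 32.1 CPM (lowest), 45.9 CPM (median) and 104 CPM (highest) in tt8. Both ttg1 libraries lay above Col-0, every ban, tt1, tt3 and tt5 library lay below it, and tt8 lay on both sides. The test passed in none of these comparisons (tt8 against ttg1 −0.82 ± 0.50, adjusted p = 0.464). The promoters of the pair are shown because the levels of the copies differ so widely (TAIR10.1, LHCB4.1 chr5:208616-208865, plus strand, LHCB4.2 chr3:2717307-2717556, plus strand). Capitals mark the G-box (CACGTG), the I-box (GATAAG) and CCAATC, a motif described for the GOLDEN2-LIKE (GLK) regulators of chloroplast genes, on either strand.
LHCB4.1: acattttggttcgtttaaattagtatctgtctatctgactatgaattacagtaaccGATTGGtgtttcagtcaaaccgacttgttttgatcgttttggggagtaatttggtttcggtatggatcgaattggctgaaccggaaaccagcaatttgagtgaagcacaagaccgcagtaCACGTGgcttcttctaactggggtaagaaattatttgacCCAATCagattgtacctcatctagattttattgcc
LHCB4.2: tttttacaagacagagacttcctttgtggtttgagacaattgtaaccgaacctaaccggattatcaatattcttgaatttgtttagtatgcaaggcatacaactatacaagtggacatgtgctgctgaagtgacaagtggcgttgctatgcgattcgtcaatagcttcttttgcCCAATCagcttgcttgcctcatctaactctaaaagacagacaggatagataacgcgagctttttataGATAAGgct
LHCB4.1 has 1 G-box, 74 bases before its start, and the GLK motif at 194 and 35 bases before it. LHCB4.2 has no G-box, the GLK motif at 76 bases and an I-box at 9 bases before its start.

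LHCB6 (AT1G15820), encoding the minor antenna protein CP24, had the widest range of the antenna genes as highest over lowest, from 0.814 CPM in ban-7 to 15.1 CPM in ttg1-24, with 14.1 CPM in Col-0. In tt8 LHCB6 had 10.5 CPM in tt8-8 and 3.20 to 4.70 CPM in the rest. On the log2(CPM + 1) scale LHCB6 was the only gene over 2-fold higher in ttg1-24 than in ttg1-23 (2.95% of all tested genes were), while by the plain CPM ratio PSAD1 and PSAH1 were too (5.03% of all tested genes). Genes annotated on the opposite strand overlap 461 bases of LHCB6. LHCB5 (AT4G10340), encoding the third minor antenna protein CP26, was at 0.756 and 0.612 CPM in tt1-4 and tt1-5, at 2.87 CPM in Col-0, and between 1.53 and 4.17 CPM in the remaining mutants. Both tt1 libraries lay below every other sample, and the log2 fold change against Col-0 was −2.18 ± 0.58 (adjusted p = 0.0846 by edgeR; DESeq2 called it). Of the photosystem I antenna genes, LHCA4 (AT3G47470) ran from 4.76 to 23.6 CPM, LHCA3 (AT1G61520) from 1.53 to 8.87 CPM, LHCA2 (AT3G61470) from 0.751 to 3.86 CPM and LHCA1 (AT3G54890) from 0.188 to 2.24 CPM. LHCB3 (AT5G54270), for a subunit of the main trimer, ran from 0.313 to 3.90 CPM. Its partners in the trimer, the 8 LHCB1 and LHCB2 genes, were not part of the 45 and summed to 1.38 CPM in ban-7 and at most 11.7 CPM in ttg1-24. These copies are nearly identical, and how reads mapping to several places were counted is not given.

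PETC (AT4G03280), for the Rieske protein of cytochrome b6f, was the steadiest of the 44 genes, from 9.10 CPM in tt1-5 to 20.04 CPM in tt5-4 with 15.5 CPM in Col-0. The plastocyanin genes PETE1 (AT1G76100) and PETE2 (AT1G20340) were low. PETE2 ran from 1 count (0.0726 CPM) in tt8-8 to 1.74 CPM in ttg1-24, while PETE1 ran from 0.0882 CPM in tt5-3 to 1.19 CPM in ttg1-23. In Col-0 PETE1 was at 1.18 CPM, and in tt8 its log2 fold change was −2.07 ± 0.78 (adjusted p = 0.169). The pair of ferredoxin-NADP reductase genes, whose products make NADPH, moved apart in Col-0. LFNR1 (AT5G66190), 191 bases of which overlap a gene on the opposite strand, held 74.2% of the pair's counts in Col-0 and 34.1% in tt8-7, the lowest sample. It was at 8.97 CPM in Col-0, at 2.82 CPM in the lowest mutant library, ban-7, and at 6.31 CPM in the highest, ttg1-23, so that no mutant reached Col-0. LFNR1 came closest to the threshold after PSBY, with a log2 fold change of −1.31 ± 0.32 in tt8 (adjusted p = 0.0523 by edgeR) and −1.17 ± 0.30 for the mean of the 6 loci (adjusted p = 0.0629). LFNR2 (AT1G20020) was at 3.12 CPM in Col-0 and above it in 14 of the mutant libraries, without passing the test (log2 fold change for the mean of the 6 loci 0.56 ± 0.61, adjusted p = 0.636).

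The 2 ATP synthase genes, for the gamma subunit that rotates (ATPC1, AT4G04640) and the delta subunit that holds the stator (ATPD, AT4G09650), had the widest range of any sub-group as highest over lowest. Their sum was 42.0 CPM in Col-0 and lower in all 16 mutant libraries, down to 4.57 CPM in ban-7. ATPC1 was at 32.7 CPM in Col-0, 31.0 and 3.07 CPM in ban-6 and ban-7, 6.26 and 16.2 CPM in tt1-4 and tt1-5, and 14.0 and 5.78 CPM in tt3-3 and tt3-4. It was at 7.01 CPM in tt5-3 and 35.7 CPM in tt5-4, at 15.9 and 10.8 CPM in ttg1-23 and ttg1-24, and at 6.23 CPM (lowest), 9.55 CPM (median) and 14.5 CPM (highest) in tt8. Only tt5-4 and ban-6 came near Col-0. ATPD was at 9.29 CPM in Col-0 and from 1.502 CPM (ban-7) to 8.64 CPM (ban-6) in the mutants, below Col-0 in each. The tests did not pass, at −1.76 ± 0.86 for ATPC1 and −1.75 ± 0.66 for ATPD in tt8 (adjusted p = 0.269 and 0.164).

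The Rubisco small subunit genes made up 33.0% to 44.6% of the group's counts, nearly all from RBCS1A (AT1G67090). RBCS1A was at 157 CPM in Col-0, 188 and 82.5 CPM in ban-6 and ban-7, 123 and 142 CPM in tt1-4 and tt1-5, and 182 and 129 CPM in tt3-3 and tt3-4. It was at 126 CPM in tt5-3 and 204 CPM in tt5-4, at 266 and 171 CPM in ttg1-23 and ttg1-24, and at 127 CPM (lowest), 156 CPM (median) and 295 CPM (highest) in tt8. Mutants lay on both sides of Col-0, and the log2 fold changes ran from −0.38 in tt1 to 0.43 in ttg1 without passing the test. The other 3 copies lie next to each other on chromosome 5 and are nearly identical. How reads mapping to several places were counted is not given, which limits the separate levels and shares of these copies. RBCS3B (AT5G38410) ran from 1.94 CPM in tt5-3 to 13.5 CPM in ban-6 and RBCS2B (AT5G38420) from 1.05 CPM in tt8-9 to 4.76 CPM in ban-7. RBCS1B (AT5G38430) had 10 counts in Col-0 and 1 count in the tt5 libraries together, a ratio of 0.0370 with a counting interval of 0.000853 to 0.260 (adjusted p = 0.320). RBCS2B was highest in ban-7, the library in which 24 of the 44 genes were lowest (12.7% of all tested genes were), and it held 70.4% of its pair with RBCS3B there against 11.0% in tt8-7 and 27.2% in Col-0. Its promoter (TAIR10.1, chr5:15382072-15382321, minus strand) is shown because it went against its neighbours and holds both a G-box and 3 I-boxes, in capitals.
RBCS2B: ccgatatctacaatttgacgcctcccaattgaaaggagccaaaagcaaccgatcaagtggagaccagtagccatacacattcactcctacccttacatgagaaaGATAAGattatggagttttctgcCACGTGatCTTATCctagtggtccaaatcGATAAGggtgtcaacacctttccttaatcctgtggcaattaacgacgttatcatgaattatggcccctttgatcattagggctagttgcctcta
The G-box lies 123 bases before the annotated start and the I-boxes at 146, 115 and 94 bases.

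Among the Calvin cycle genes, RCA (AT2G39730), whose product keeps Rubisco active, gave the most counts. RCA was at 49.0 CPM in Col-0, 74.1 and 17.6 CPM in ban-6 and ban-7, 23.5 and 25.4 CPM in tt1-4 and tt1-5, and 47.7 and 25.5 CPM in tt3-3 and tt3-4. It was at 25.1 CPM in tt5-3 and 85.8 CPM in tt5-4, at 67.0 and 41.5 CPM in ttg1-23 and ttg1-24, and at 29.6 CPM (lowest), 35.7 CPM (median) and 77.4 CPM (highest) in tt8. Both tt1 alleles and both tt3 alleles lay below Col-0, while ban, tt5, tt8 and ttg1 alleles lay on both sides of it. GAPA (AT3G26650) and GAPB (AT1G42970), the subunits of the chloroplast glyceraldehyde-3-phosphate dehydrogenase, had low values in Col-0 (4.05 and 8.66 CPM). GAPB exceeded GAPA in 17 of 17 samples, and its log2 fold change lay above 0 in all 6 loci (0.29 in tt1 to 0.97 in tt5) without passing the test. PRK (AT1G32060), for phosphoribulokinase, had the widest range of the sub-group as highest over lowest, from 1.00 CPM in ban-7 to 9.40 CPM in ban-6.

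**Figure D2:**
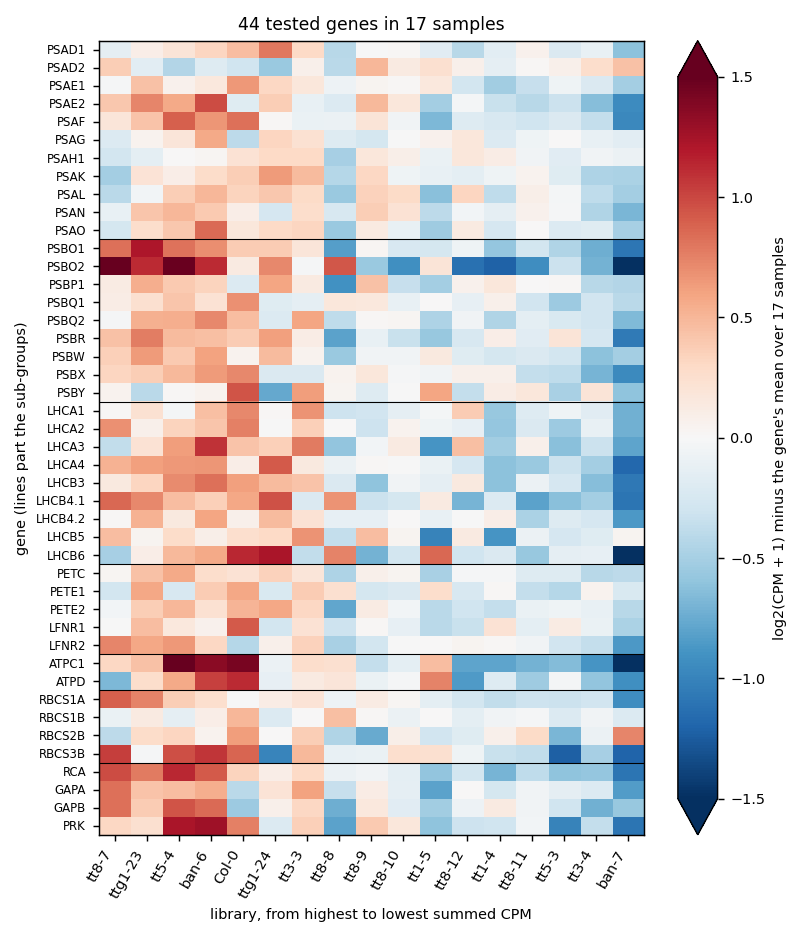
Each row is 1 of the 44 tested genes and each column 1 of the 17 samples, ordered by summed CPM, and the colour gives log2(CPM + 1) minus the gene's mean over the samples (red above, blue below). Most rows are red in ban-6 and tt5-4 and blue in ban-7, and PSAD2 and RBCS2B are red in ban-7.

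Against the same Col-0 sample, which all of the comparisons share, most of the 44 genes lay below 0 without passing the test. For the mean of the 6 loci, 36 of 44 were below 0 with a median log2 fold change of −0.69, while over all tested genes the median was 0.04 and 46.5% were below 0. The numbers below 0 were 34 in ban (median −0.58), 40 in tt1 (−1.05), 39 in tt3 (−0.73), 33 in tt5 (−0.49), 35 in tt8 (−0.70) and 25 in ttg1 (−0.13). The ttg1 libraries came closest to an even split. By sub-group, all 9 antenna genes and both ATP synthase genes were below 0 in the mean of the loci, as were 8 of 11 photosystem I genes, 7 of 9 photosystem II genes, 4 of 5 electron transport genes and all 4 RBCS genes. The Calvin cycle genes divided evenly, with GAPA and GAPB above 0 and RCA and PRK below. The genes above 0 in the mean were PSAG, GAPB, LFNR2, GAPA, PSAD2, PSAE2, PSBP1 and PSBO2.

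With edgeR, 0 of the 44 genes passed the test in the mean of the loci (2.41% of all tested genes did), ban (0.569%), tt1 (1.55%), tt3 (0.602%), tt5 (0.246%) and tt8 (2.21%), and 1 of 44, PSBY, passed in ttg1 (1.56%). At an unadjusted p under 0.05, in the same order, the numbers were 5 of 44 (19.4% of all tested genes), 3 (15%), 4 (17%), 3 (18.8%), 5 (10.8%), 5 (20.5%) and 3 (18.9%). DESeq2 called 2 (6.31% of all genes with an adjusted p), 2 (3.72%), 2 (5.16%), 0 (4.99%), 1 (1.86%), 2 (6.83%) and 1 (7.2%), all of them PSBY, LFNR1 or LHCB5. These numbers are near or below the shares over all genes and are no result about the group. The 0 counts thus depended on the tool. They also depended on single libraries: without ban-6, edgeR called LHCB6, PSAF, PSBY and PSBX in ban (4.49% of all tested genes) and PSBY and LFNR1 in tt8 (5.24%) and in the mean of the loci (6.29%). Without ban-7 it called PSBY and LFNR1 in tt8 (5.25%). Calls over all genes thus rose as well.

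**Figure D3:**
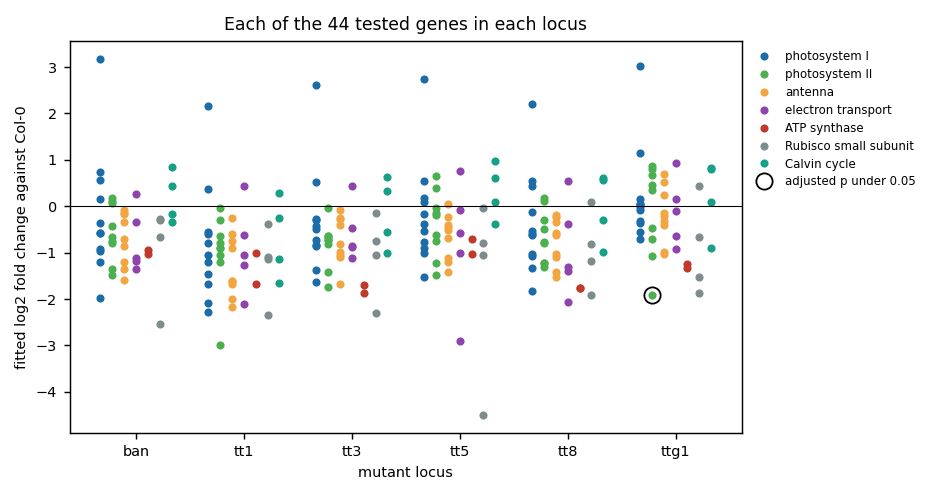
Each point is 1 of the 44 tested genes, with its fitted log2 fold change against Col-0 (y axis) in each of the 6 loci (x axis), set out and coloured by sub-group, and a circle marks an adjusted p under 0.05. PSBY in ttg1 is the only circled gene, and the highest point of each locus is PSAG, which had 1 count in Col-0.

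Counted by library rather than by test, every tt1 library lay below Col-0 for 35 of the 44 genes, whereas 29.6% of all tested genes showed this. The counts for the rest were 27 in tt3 (31.8% of all tested genes), 24 in tt8 (23.3%), 19 in ban (25.8%), 17 in tt5 (25.2%) and 16 in ttg1 (35.7%). In ttg1, 15 genes lay above Col-0 in both libraries (41.3% of all tested genes), among them LHCB4.1, PETC and RBCS1A. Col-0 was the highest of the 17 samples for 9 genes (10.8% of all tested genes): PSAE1, PSBQ1, PSBX, PSBY, LHCA1, LHCA2, LFNR1, ATPD and RBCS1B.

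TT8 and TTG1 are partners in one regulatory complex, and their mutants were compared directly. The summed level of the group was 429.6 ± 143 CPM in tt8 (n = 6) and 591 ± 97.0 CPM in ttg1 (n = 2), with tt8-7 above both ttg1 libraries. Of the 44 genes 41 were lower in tt8 than in ttg1, with a median log2 difference of −0.47 against 0.00 over all tested genes, and 0 passed edgeR's test (0.0434% of all tested genes did), while 3 had a p under 0.05 before adjustment (14.2% of all tested genes) and 0 were called by DESeq2 (2.89% of all genes). The exceptions above 0 were PSAD2, PSBY and RBCS3B. For 11 genes both ttg1 libraries lay above every tt8 library (7.62% of all tested genes): PSAD1, PSAE1, PSAO, PSBP1, PSBR, PSBW, LHCA4, LHCB3, LHCB4.2, PETC and PETE2. No Rubisco, Calvin cycle or ATP synthase gene was among them. Across all 6 mutant loci, edgeR found 0 of 44 genes that differed (0% of all tested genes did), while 2 had a p under 0.05 before adjustment (9.06% of all tested genes) and 0 were called by DESeq2 (3.62% of all genes).

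Alleles of a locus also differed from each other, and with 1 library an allele these differences have no replicate check. In ban, tt5 and ttg1 they also set a SALK line (ban-6, tt5-4, ttg1-23) against a SAIL line (ban-7, tt5-3, ttg1-24). The SALK line had the higher photosynthesis sum in each, and allele and collection cannot be told apart there. Both tt1 lines are SALK and both tt3 lines are SAIL. In tt8, the sum of the SAIL line tt8-12 (333 CPM) lay above that of the SALK line tt8-11 (315 CPM). It lay below those of the SALK lines tt8-8, tt8-9 and tt8-10 (419, 410 and 390 CPM). Of the 44 genes 42 were higher in ban-6 than in ban-7, where 48.5% of all tested genes were, and 28 were more than 2-fold higher on the log2(CPM + 1) scale (13.1% of all tested genes). By the plain CPM ratio, which lets in genes of a few counts, 36 were (18.2% of all tested genes). The exceptions to the direction were PSAD2 and RBCS2B. In tt3, 42 genes were higher in tt3-3 than in tt3-4 (61.1% of all tested genes), PSAD2 and LHCB6 being the exceptions. In tt5, 1 gene, PSAD2, was higher in tt5-3 than in tt5-4, as 53.3% of all tested genes were. The tt1 and ttg1 alleles were more evenly divided, with 24 genes higher in tt1-4 (53.1% of all tested genes) and 30 higher in ttg1-23 (67.7%).

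These contrasts between alleles went together with the seed markers, a list of 15 storage protein, oleosin and late embryogenesis genes that were all tested. They summed to 1282 CPM in ban-6 and 4566 CPM in ban-7, to 3164 CPM in tt3-3 and 4429 CPM in tt3-4, and to 2054 CPM in tt5-4 and 6435 CPM in tt5-3. In each of these loci the allele with more photosynthesis mRNA had less seed mRNA. In tt1 the seed sum was 27322 CPM in tt1-4 and 7992 CPM in tt1-5, whose photosynthesis sums were 323 and 377 CPM. In tt8 the library with the highest photosynthesis sum, tt8-7, had the lowest seed sum (2465 CPM), and tt8-11, with the lowest photosynthesis sum, had the highest seed sum (5421 CPM). The ttg1 alleles, at 1120 and 903 CPM, did not follow this order. The summed root markers were higher in the allele with more photosynthesis mRNA in ban (2113 CPM in ban-6, 1270 CPM in ban-7), tt1 (2350 CPM in tt1-5, 1741 CPM in tt1-4), tt5 (2214 CPM in tt5-4, 2043 CPM in tt5-3) and ttg1 (1694 CPM in ttg1-23, 1540.3 CPM in ttg1-24). In tt3 the order was the reverse (1471 CPM in tt3-3, 1537 CPM in tt3-4), and Col-0 was highest of all. The summed leaf and stomatal markers followed the photosynthesis order in ban (90.3 CPM in ban-6, 63.4 CPM in ban-7). They did so too in tt1 (113 CPM in tt1-5, 84.3 CPM in tt1-4) and tt3 (84.3 CPM in tt3-3, 77.3 CPM in tt3-4). The same held in tt5 (89.8 CPM in tt5-4, 62.9 CPM in tt5-3) and ttg1 (82.9 CPM in ttg1-23, 57.7 CPM in ttg1-24). In tt8 the leaf sum was highest in tt8-8 (97.6 CPM), not in tt8-7 (87.4 CPM). The part of seed, root and leaf mRNA in the results was not tested.

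**Figure D4:**
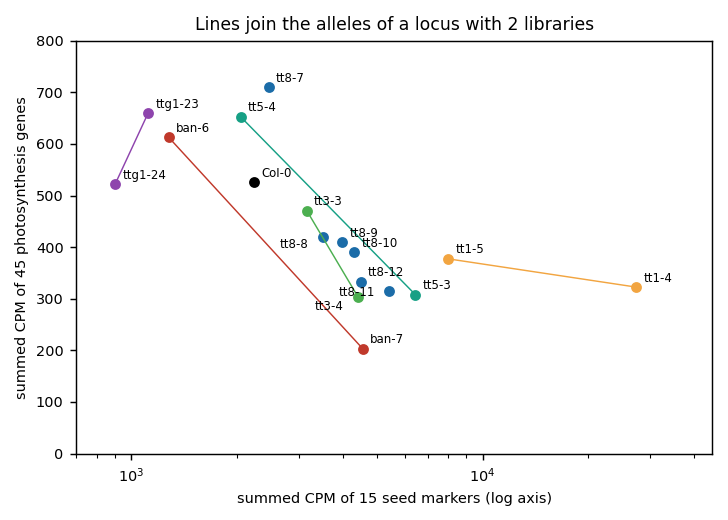
Each point is 1 of the 17 samples, with the summed CPM of 15 seed markers on a log x axis and the summed CPM of the 45 photosynthesis genes on the y axis, and lines join the alleles of loci with 2 libraries. The lines of ban, tt1, tt3 and tt5 run down to the right and that of ttg1 does not.

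**Figure D5:**
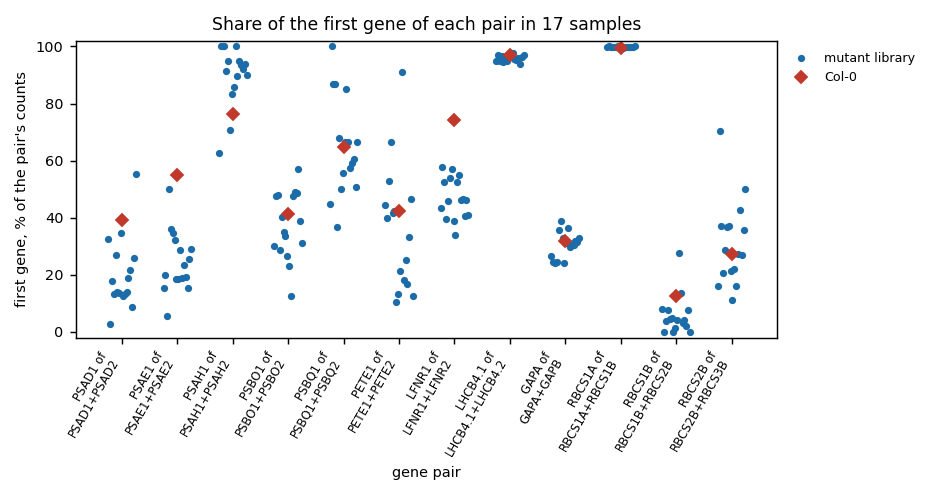
For each of 12 gene pairs (x axis), points give the first gene's percent of the pair's counts (y axis) in the 16 mutant libraries (blue) and in Col-0 (red diamond). LHCB4.1 stays above 93% and RBCS1A above 99%, while Col-0 is the highest sample for LFNR1 (74.2%) and PSAE1 (55.0%).

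The promoters of the 45 genes, taken as the 250 bases before the annotated start, were searched on both strands for 3 motifs of 6 bases. The G-box occurred in 10 of 45 (22.2%) against 6.49% of 27443 promoters of the same length, the I-box in 13 (28.9%) against 12.3%, and the GLK motif in 10 (22.2%) against 10.2%. The GLK motif was found in 5 of 9 antenna genes and in none of the 12 photosystem I genes in this window. Windows that lack a motif include those of RBCS1A and PSBY, the most abundant and the one called gene. A match is a description of the letters and not of a bound site. The annotated starts were not checked in these data, and a motif outside the window would be missed, so a lack holds for the window alone.

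Other genes of the pathway were taken from lists by function, here and in the next paragraph. By edgeR, 2.41% of all tested genes were called in the mean of the loci, 1.55% in tt1, 2.21% in tt8 and 1.56% in ttg1. The lists are short, so 1 or 2 calls can exceed such a share and are no result about a list. Among 10 further photosystem and antenna genes, 9 were tested and 1 was called lower for the mean of the loci: NPQ4, which encodes the quenching protein PSBS, had 117 CPM in Col-0, whereas the mutants lay between 37.4 and 76.3 CPM (log2 fold change −1.11 ± 0.26, adjusted p = 0.0471). Among 14 further Calvin cycle genes, a transketolase gene, AT3G60750, was called lower in tt1, tt8 and ttg1, as well as in the mean of the loci (−1.09 ± 0.18, −0.86 ± 0.16 and −0.96 ± 0.18, adjusted p = 0.0192, 0.0200 and 0.0313), and CP12-3, of a family that binds GAPDH and phosphoribulokinase, in tt1 (−1.78 ± 0.40, adjusted p = 0.0471). Of 8 further electron transport and ATP synthase genes none was called by edgeR (2 had an unadjusted p under 0.05 for the mean of the loci), and the ferredoxin genes FD1 and FED A had the widest ranges, 35.6 to 124 CPM and 60.7 to 204 CPM. Of the 8 LHCB1 and LHCB2 genes 4 were tested and none was called by edgeR (1 had an unadjusted p under 0.05 for the mean of the loci), and LHCB2.3 (0 to 1.27 CPM), CAB3 (0 to 0.993 CPM), LHCB2.1 (0.0726 to 1.15 CPM) and CAB1 (1.00 to 8.94 CPM) were all low. Col-0 was the highest sample for NPQ4, AT3G60750 and CP12-3.

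The non-green counterparts, 8 genes for cytosolic, root-type or plastid glycolytic relatives of these proteins, summed to 1564 to 2525 CPM. The sum exceeded that of the 45 photosynthesis genes in every sample. GAPC1 and GAPC2, for cytosolic GAPDH, averaged 837 and 875 CPM, while ATPC2, a second gamma subunit gene, was at 0 in every sample. Of the 7 tested, 2 were called lower by edgeR in the mean of the loci. They were FD3, a root-type ferredoxin gene (−0.77 ± 0.17, adjusted p = 0.0381), and GAPCP-1, for a plastid glycolytic GAPDH (−0.84 ± 0.17, adjusted p = 0.0285). FD3 was also called lower in tt8 (−0.84 ± 0.18, adjusted p = 0.0351), and GAPCP-1 in tt1 and tt8 (−1.08 ± 0.22 and −0.81 ± 0.18, adjusted p = 0.0319 and 0.0432). Col-0 was the highest sample for both (155 and 266 CPM). Of 18 regulators, SIG4, a nuclear-encoded sigma factor of chloroplast transcription, was called lower in ttg1: it had 10.3 CPM in Col-0, 2.71 CPM in ttg1-23 and 1.86 CPM in ttg1-24 (−2.20 ± 0.44, adjusted p = 0.0351). Of the tissue markers, EM1, a late embryogenesis gene, was called lower in ttg1 (−1.62 ± 0.37, adjusted p = 0.0493). No root, leaf or stomatal marker was called by edgeR, and, leaving aside MYB66 (0 to 1.23 CPM), the widest ranges were those of TIP2;3 (0.0626 to 32.6 CPM) and EXPA7 (0.0707 to 5.89 CPM) in the root list and EPF2 (0.0765 to 1.12 CPM) and SPCH (0.145 to 1.76 CPM) in the leaf and stomatal list.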

How the data were processed

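The authors deposited counts per gene for 18 libraries, aligned with HISAT2 to the build TAIR10 per the submitters' processing notes. Not given in the sources used here are the counter, the annotation, the strand setting and how multi-mapping reads were handled. Rows of small RNA features (at most 0.0204% of a library's counts) stayed out. CPM were computed over the 32547 nuclear loci, and the Col-0 files were averaged and rounded. Genes were tested with edgeR 4.0.16 in R 4.3.3 (TMM, filterByExpr by group over the 18 files, quasi-likelihood F-test with robust spread, two-sided, Benjamini-Hochberg over 20747 genes, threshold 0.05). The fit had 17 samples in 7 groups, and the lone Col-0 sample was assumed to vary like the rest. The fit was also run on simulated counts with the same spread for every gene, in which only better expressed genes were changed. That run does not check the fit for genes of low counts. DESeq2 1.42.0 was an alternative. A pseudocount of 1 CPM entered the heatmap and the 2-fold counts between alleles, for which the plain ratio was tried after seeing the data. Transcript lengths, coordinates and promoters came from RefSeq's TAIR10.1 annotation, in which all 45 genes matched and 17 overlap another gene. Alternatives covered scaling, filter, Col-0 handling, Windows line ends (present in tt8-8, tt8-11 and the Col-0 files) and leaving out each library.

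The rule for the 45 genes goes by protein function and uses no measured value, but the genes and lists were chosen with earlier results of these data known. Values are given per library for the gene with the highest mean, the widest and the narrowest range (highest over lowest CPM, genes at 0 in a library left out) of each sub-group, every called gene, the largest rises and falls per locus, and the members of 12 gene pairs. From the other lists up to 4 called genes are named, or else the 2 of widest range.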

Additional observations from a re-analysis of the deposited data

Results flagged for a closer look

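Of 52 quantities examined in the 6 tt8 libraries, 14 had a highest or lowest library far from the rest, with a gap that took up more of the group's range than Dixon's 95% critical value allows. Chance flags about 1 in 20 groups, and these quantities share libraries and counts. In tt8-7, 6 genes stood above the other 5 libraries: RBCS1A at 295 CPM, RCA at 77.4 CPM, RBCS3B at 13.2 CPM, GAPA at 10.8 CPM, LFNR2 at 8.21 CPM and LHCA2 at 3.61 CPM. The other tt8 libraries reached at most 172 CPM for RBCS1A and 37.3 CPM for RCA. The sums over all 45 genes (710 CPM), photosystem II (84.3 CPM), the Rubisco small subunit (310 CPM) and the Calvin cycle (116 CPM) were set apart in the same library. In tt8-8, LHCB6 was high at 10.5 CPM, and PETE1 and RBCS1B at 0.726 and 0.581 CPM. In tt8-11, LHCB4.2 was low at 1.38 CPM. The tt8-7 library is the only one of the GK collection.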

How the results depend on the processing

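The number of the 44 genes called moved with how Col-0 was counted and with the tool. With the Col-0 files as 2 samples it was 5 for the mean of the loci (21.5% of all genes were called), 3 in ban (8.89%), 2 in tt1 (10.7%), 1 in tt3 (12.1%), 1 in tt5 (4.17%), 4 in tt8 (21.0%) and 2 in ttg1 (14.4%). With DESeq2 it was 2 for the mean (6.31%), 2 in ban (3.72%), 2 in tt1 (5.16%), 1 in tt5 (1.86%) and 2 in tt8 (6.83%). In tt8 it was 1 (LFNR1) with Col-0 file 1 alone (2.08%) or with the compared libraries alone (2.67%). In ttg1, with 1.56% of all genes called in the main fit, it was 0 with total counts alone (1.4%) or no filter (0.528%). It was also 0 with line ends as a term (0.0675%) or the compared libraries alone (0%). The same held for library sizes without these genes and the 100 most abundant ones (1.47%). In these settings the adjusted p of PSBY was 0.0543, 0.0714, 0.389, 0.242 and 0.0548, in that order, with log2 fold changes of −1.63 to −1.91. Leaving out 1 library at a time gave 0 to 2 genes for the mean of the loci, 0 to 4 in ban, 0 to 2 in tt8, 0 to 1 in ttg1, and 0 elsewhere. The 4 in ban, without ban-6, were LHCB6, PSAF, PSBY and PSBX, from ban-7 alone. The 2 in tt8, without ban-6 or without ban-7, were PSBY and LFNR1. Without each of the tt1, tt3, tt5 and 5 of the tt8 libraries in turn, ttg1 had 0 (0.501% to 1.18% of all genes were called). The PSBY call in ttg1 was also lost without either ttg1 library.

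A few directions changed, none of them called: LFNR2 in tt1 (−0.10) and RBCS1B in ttg1 (0.0024) with line ends as a term, and GAPB in ban, which ran from −0.089 without ban-6 to 1.42 without ban-7. The causes were not tested. Using only the files with Windows line ends for tt8, an alternative chosen after seeing the data, called 0 genes among these and 0 of all. Summed levels were also taken under TMM and RLE library sizes. With TMM the sum rose in some samples, as from 710 to 764 CPM in tt8-7 and from 526 to 556 CPM in Col-0. It fell in others, as from 471 to 440 CPM in tt3-3. These TMM sums lay outside the counting intervals of the plain sums. No paired analysis was possible because only the Col-0 files carry replicate numbers. Depth limits the low genes: 3 counts correspond to 0.111 to 0.372 CPM.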

Other observations

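Among the regulators, SIG2, which encodes a sigma factor of chloroplast transcription, was at 67.4 CPM in ban-7 and at 9.56 to 13.8 CPM in the other 16 samples. It was singled out after its values were seen. In ban-7, 24 of the 44 photosynthesis genes were at their lowest level of the 17 samples, as were 12.7% of all tested genes. Whether the level of SIG2 has a part in this was not tested.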
